A study of Homo sapiens with 24 samples.

Results

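SNU1079 cells treated with YC-1 for 6 h were compared with cells given the solvent DMSO for the same time, with 3 libraries in each group. A gene was described when 3 or more of these 6 libraries held a normalised count of 10 or higher. That held for 15298 genes, out of 17860 tested across the series and 57820 rows in its table. TAL2 and ENSG00000247934 lay just inside this minimum and ENSG00000205081 and LINP1 just outside it, with 9.99 in the library that ranked 3 from the top.

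SNU1079 and RBE, the other line of the series, are human cholangiocarcinoma lines that the labels describe as carrying mutant IDH1 and expressing SULT1A1. The whole series holds 24 libraries of messenger RNA in 8 groups, from 2 lines, 2 treatments and 2 times (6 h and 16 h), and the design text calls the 3 libraries of a group biological replicates. Nothing further is said about how the cultures were separated, so p-values measure the spread between these libraries. The labels give no dose. Times were taken from the titles, which the design text bears out, because a separate time label reads 16 h on all DMSO samples and 6 h on all YC-1 samples whatever their title.

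YC-1, a benzylindazole, is known to activate soluble guanylate cyclase, the enzyme that makes cyclic GMP when nitric oxide binds it, and to inhibit the hypoxia factor HIF-1. Sulfotransferases such as SULT1A1 move a sulfate group onto small hydroxylated molecules, which can turn some of them into reactive alkylators. Cells under many kinds of stress phosphorylate the initiation factor eIF2, which favours translation of the factor ATF4 and, through it, transcription of CHOP (DDIT3), ATF3 and genes of amino acid supply. Early genes such as FOS and EGR1 are short, have unstable transcripts and respond within minutes to signals from MAP kinases. A polymerase needs longer to cross a long gene than a short one, so a change in transcription reaches the end of a long gene later.

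The epithelial identity of the libraries fitted the label. KRT7, a keratin of bile duct cells, stood at 40735, 39617 and 42416 normalised counts in the DMSO libraries and 50408, 36304 and 37226 in the YC-1 libraries. Of 11 cholangiocyte markers 9 passed the minimum, against 4 of 13 hepatocyte, 4 of 11 stromal and endothelial and 2 of 10 leukocyte markers. The chloride channel CFTR, a cholangiocyte marker, went against this, below the minimum and at 7.095 at most. Among the defining markers of the other cell types, APOA2, APOB, COL1A2, COL3A1, DCN, LUM and NKG7 were listed at 0 in all 6 libraries. ALB reached 1.299 at most. Other markers of those cells were present: across the 6 libraries SERPINA1 stood at 1275 to 1408 and CPS1 at 468.3 to 589.3 among the hepatocyte markers, COL1A1 at 1926 to 3808 and ACTA2 at 424 to 636.9 among the stromal markers, and CD68 at 1331 to 1634 among the leukocyte markers. These are bulk samples, in which fewer cells of a kind and less RNA per cell cannot be told apart.

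YC-1 replicate 1 stood apart from its group before any test. The Pearson correlation of log2 values across genes was 0.988 between YC-1 replicates 2 and 3, but 0.955 and 0.957 between each of them and replicate 1, and 0.981 to 0.987 among the DMSO libraries. The first principal component of the 6 libraries (50.9% of the variance) separated the treatments, and the second (23.3%) placed YC-1 replicate 1 at -66.9 and replicates 2 and 3 at 43.3 and 39.6. Among 11074 genes with a mean of at least 100, 300 were over 2-fold above and 771 over 2-fold below the mates of replicate 1. This deviation followed the GC content of the transcripts, with a Spearman correlation of 0.82 across 10893 genes and a median log2 difference of -0.71 in the lowest of 5 equal groups by GC content and 0.61 in the highest. Summed normalised counts (in units of 1e+06) ran from 19.95 to 21.48 per library, and mitochondrially encoded genes took 6.9% to 8.39% of them in the DMSO libraries and 7.78%, 9.35% and 11.5% in YC-1 replicates 1 to 3. Results are therefore given with all 6 libraries and, beside them, without YC-1 replicate 1. Neither fit is free of GC content: across 14837 genes its Spearman correlation with the fold change was 0.11 with all libraries and -0.16 without that replicate. Without it 21.3% of genes were called higher in the lowest GC group and 7.3% in the highest, against 12.1% in both with all libraries.

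**Figure D1:**
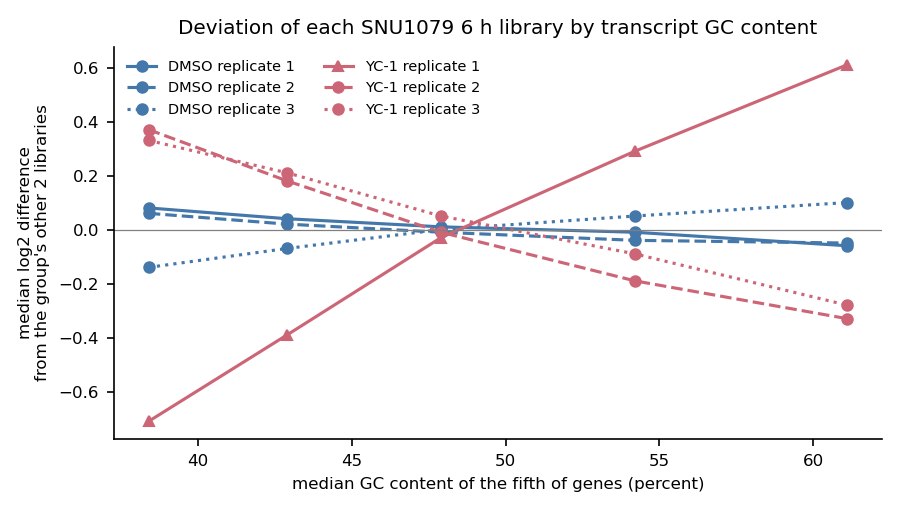
Median log2 difference of each SNU1079 6 h library from the other 2 libraries of its group (vertical axis) against the median transcript GC content of 5 equal groups of genes (horizontal axis, percent), for genes with a mean of at least 100. YC-1 replicate 1 (triangles) runs from -0.71 at low to 0.61 at high GC content, while the DMSO libraries lie between -0.14 and 0.10.

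After 6 h with YC-1, stress regulators, early genes, amino acid transporters and the gene of the largest RNA polymerase II subunit were among the higher genes in SNU1079, and long genes and genes of DNA replication among the lower ones. Over all genes tested, 28.2% were called, with 2499 higher and 2543 lower, by limma's moderated test on log2(normalised count + 1) at a Benjamini-Hochberg adjusted p under 0.05. Fold changes are on that scale, which understates the change of low genes. Among the 15298 genes described, 2214 (14.5%) were called higher and 2489 (16.3%) lower, and these shares are the background for every gene list. Without YC-1 replicate 1 the shares were 15.5% and 15.3%. In both fits 1834 genes were called higher and 1995 lower. That 0 were called in opposite directions says little, because the fits share every library except YC-1 replicate 1. Scaling the libraries to their ribosomal protein genes moved the median log2 fold change of the genes described from -0.01 to -0.20 and gave 1362 higher and 3135 lower calls over all genes tested, so directions below are relative to the authors' scaling. Of the genes described, 200 passed the minimum only through the YC-1 libraries, of which 168 were called higher, and 87 only through the DMSO libraries, of which 57 were called lower.

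Changes past 8-fold went mostly upward. They numbered 100 higher against 17 lower genes, while the counts past 2-fold were close, at 852 and 960. Of the 100 strongly higher genes 92 had a DMSO mean under 50. The minimum sets this in part, since 200 genes that were low with DMSO entered through their YC-1 values alone. A position was known for 92 of the 100, and 81 of these spanned under 30 kb of the genome, as did 51.8% of all genes described with a position. Of the 17 strongly lower genes 15 had a position, and 9 of these spanned over 100 kb, against 17.7% of all those with a position. The median normalised count under DMSO was 388.4 over all genes described, and the highest among the 17 was 361.7.

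ATF3, a stress-induced repressor and activator of the CREB family, had the highest fold change among described genes with a mean over 1000 in the 6 libraries. It stood at 292.7, 317.5 and 307.6 in the DMSO libraries and 10533, 11639 and 11203 in the YC-1 libraries. The groups lay far apart and the 3 YC-1 libraries close together, with a log2 fold change of 5.18 ± 0.22 (SE, adjusted p = 9.81e-13), and 5.22 without YC-1 replicate 1. FOS, the classical early gene of the AP-1 factor, went from 8.908, 13.35 and 11.23 to 460.8, 286.5 and 271.3, highest in YC-1 replicate 1, at 4.78 ± 0.27 (SE, adjusted p = 4.1e-11) and 4.54 without that replicate. NR4A3, an orphan nuclear receptor of the early response, went from 15.81, 8.47 and 11.77 to 260.1, 292.3 and 280.5, at 4.46 ± 0.33 (SE, adjusted p = 2.77e-09). All YC-1 libraries of both genes exceeded every DMSO library by a wide margin.

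Secreted and cytoskeletal genes stood beside these factors. CCL20, a chemokine for CCR6-bearing lymphocytes, was at 9.679, 8.948 and 7.791 with DMSO and 189.4, 272.2 and 273 with YC-1. Replicate 1 was the lowest of the YC-1 libraries there, and the log2 fold change was 4.63 ± 0.38 (SE, adjusted p = 1.36e-08). RND1, an atypical small GTPase that loosens actin stress fibres, was at 36.1, 31.52 and 36.75 with DMSO and 930.1, 684.5 and 721.8 with YC-1, a log2 fold change of 4.44 ± 0.19 (SE, adjusted p = 1.01e-12). CHAC1, which degrades glutathione and is a target of ATF4, went from 53.39, 64.82 and 63.17 to 1523, 903.4 and 859.6. Its values did not overlap, replicate 1 was the highest, and the log2 fold change was 4.11 ± 0.20 (SE, adjusted p = 4.5e-12) with all libraries and 3.85 without it.

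Among the 12 highest fold changes by the naming rule were also transcripts that overlap or follow another gene. RPL36A-HNRNPH2, a joint transcript of neighbouring genes, was listed at 0 in all DMSO libraries and stood at 290.5, 180.2 and 157.5 with YC-1. LSMEM1, which overlaps IFRD1 on the same strand, went from 9.077, 5.281 and 5.189 to 74.35, 98.4 and 171.4 (3.90), and DDN, which starts 3.0 kb after PRKAG1, from 2.16, 5.429 and 3.052 to 142.5, 81.56 and 127.7 (4.73). These YC-1 values lay above all DMSO values, but reads of overlapping genes may have been split between them by the authors' counting. GUCA1B, a calcium sensor of photoreceptor guanylate cyclase, went from 5.446, 3.63 and 0 to 149.4, 113.8 and 117.1 (5.35). The antisense transcript KRTAP5-AS1 went from 3.965, 4.975 and 11.22 to 122.3, 119.8 and 110.3 (4.05). ENSG00000260342 (4.33) overlaps ARL6IP1, varied from 0, 15.48 and 25.43 under DMSO to 355.7, 95.24 and 102.8 with YC-1, and lost its call when only the 6 libraries were fitted (adjusted p = 0.0874).

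**Figure D2:**
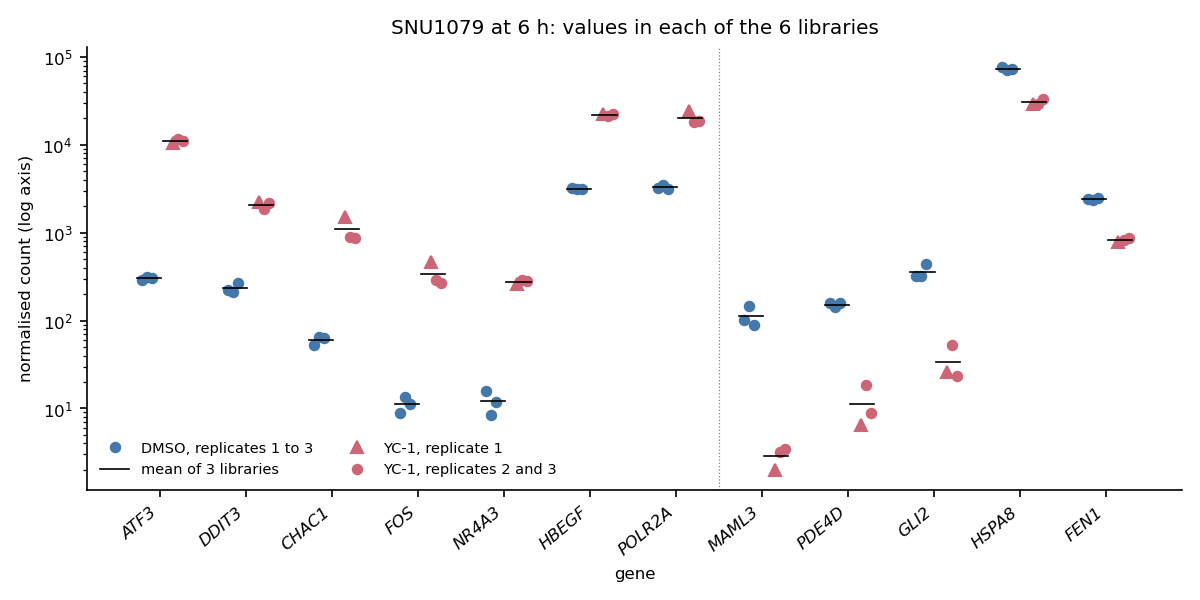
Normalised counts (log axis) of 12 genes in each of the 6 SNU1079 6 h libraries, with the mean of each group as a bar. The DMSO and YC-1 values of every gene shown lie apart, 7 genes higher and 5 lower with YC-1, and YC-1 replicate 1 (triangles) is the highest YC-1 library for CHAC1, DDIT3, FOS and POLR2A.

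The regulators of the ATF4 and CHOP response were mostly higher. Of the 17 genes on that list, 12 were called higher and 2 lower, or 12 and 0 without YC-1 replicate 1, with a median log2 fold change of 1.11 against -0.01 over all genes described. DDIT3, which encodes CHOP, rose from 224.9, 209.3 and 268.2 to 2212, 1863 and 2178, with a log2 fold change of 3.15 ± 0.17 (SE, adjusted p = 1.84e-11). PPP1R15A (GADD34), which directs the phosphatase that reverses eIF2 phosphorylation, went from 1860, 1681 and 1875 to 9631, 7872 and 7770, at 2.22 ± 0.13 (SE, adjusted p = 4.74e-11). ATF4 itself rose from 3476, 3277 and 3593 to 7816, 6520 and 6995, at 1.04 ± 0.10 (SE, adjusted p = 7.15e-08). In these 3 genes the groups did not overlap, and the log2 fold changes without YC-1 replicate 1 were 3.11, 2.12 and 0.97. The 2 lower calls of the list fell away without that replicate.

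Genes that supply amino acids, many of them known ATF4 targets, were also mostly higher. On the list of synthesis enzymes and transporters 12 of 17 were called higher and 0 lower, or 13 and 0 without YC-1 replicate 1, with a median of 1.14. ASNS, asparagine synthetase, stood at 1266, 1358 and 1239 with DMSO and 8300, 8851 and 10447 with YC-1, a log2 fold change of 2.83 ± 0.11 (SE, adjusted p = 1.47e-13). SLC7A11, the cystine importer, went from 1131, 1112 and 726.3 to 2033, 4373 and 3443 (1.69 ± 0.31), lowest among YC-1 libraries in replicate 1. SLC3A2, its heavy chain partner, went from 1975, 1784 and 1858 to 6794, 5196 and 5710 (1.65 ± 0.12). MTHFD2, a mitochondrial folate enzyme, rose by 1.75 with all libraries, but its adjusted p of 0.0231 turned to 0.0522 to 0.0589 when any 1 of the 5 libraries other than YC-1 replicate 1 was left out. The main fit takes its spread from all 24 libraries. MTHFD2 had an adjusted p of 0.000712 with only the 6 compared, and was not called when scaled to ribosomal protein genes.

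Cytosolic tRNA synthetases, which load amino acids onto tRNAs, followed with smaller steps. Of these, 9 of 20 were called higher and 1 lower, or 10 and 0 without YC-1 replicate 1, with 7 to 10 higher when any 1 of the 6 libraries was left out. CARS rose by 1.22 ± 0.09, SARS by 1.16 ± 0.09, GARS by 1.02 ± 0.09 and TARS by 0.80 ± 0.09 (log2 fold change ± SE). GARS, for glycine, went from 6899, 7496 and 7395 to 13510, 15214 and 15431, with no overlap between groups.

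Promoter sequence was at hand for part of these genes. RefSeq windows of the 250 bases before the transcription start (GRCh38.p14) matched 10401 of the genes described, and the windows below are 5 of those of higher genes with a match to a named motif, chosen after their values were seen. Windows of other higher genes with a match, such as KLF4 and ATF4, are not shown. Capitals mark the match, on either strand: the C/EBP-ATF response element TGATGCAA in CHAC1, the cyclic AMP response element TGACGTCA in PPP1R15A and MAFF, the AP-1 element TGANTCA in DDIT3, the E-box CACGTG in MAFF and the CArG box, the element of serum response factor, in EGR1.
CHAC1 (chr15:40953221-40953470, forward strand): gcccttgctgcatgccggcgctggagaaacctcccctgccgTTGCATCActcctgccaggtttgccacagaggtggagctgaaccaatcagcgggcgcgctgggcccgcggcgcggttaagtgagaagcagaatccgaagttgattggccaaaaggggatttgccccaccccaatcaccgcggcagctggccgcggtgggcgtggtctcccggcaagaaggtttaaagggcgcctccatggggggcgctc
PPP1R15A (chr19:48872171-48872420, forward strand): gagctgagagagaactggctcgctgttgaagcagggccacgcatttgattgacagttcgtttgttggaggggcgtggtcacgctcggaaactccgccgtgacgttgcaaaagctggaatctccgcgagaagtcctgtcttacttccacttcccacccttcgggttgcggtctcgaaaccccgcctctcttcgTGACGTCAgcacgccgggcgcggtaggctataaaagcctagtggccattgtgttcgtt
DDIT3 (chr12:57520515-57520764, reverse strand): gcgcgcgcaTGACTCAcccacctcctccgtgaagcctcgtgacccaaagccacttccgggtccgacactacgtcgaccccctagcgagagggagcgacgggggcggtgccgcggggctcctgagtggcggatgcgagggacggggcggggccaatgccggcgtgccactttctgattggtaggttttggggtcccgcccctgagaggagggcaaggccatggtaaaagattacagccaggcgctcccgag
MAFF (chr22:38201744-38201993, forward strand): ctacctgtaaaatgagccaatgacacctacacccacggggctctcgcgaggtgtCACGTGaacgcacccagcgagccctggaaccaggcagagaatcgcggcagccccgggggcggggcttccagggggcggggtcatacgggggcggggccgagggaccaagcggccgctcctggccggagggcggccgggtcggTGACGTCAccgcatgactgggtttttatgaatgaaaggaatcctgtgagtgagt
EGR1 (chr5:138465229-138465478, forward strand): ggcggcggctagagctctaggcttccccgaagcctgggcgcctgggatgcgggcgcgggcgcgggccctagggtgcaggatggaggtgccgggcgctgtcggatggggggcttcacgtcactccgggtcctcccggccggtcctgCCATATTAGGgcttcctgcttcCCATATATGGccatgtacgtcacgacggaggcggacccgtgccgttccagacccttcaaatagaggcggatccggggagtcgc
The matches start 209 bases before the transcription start in CHAC1, 58 in PPP1R15A, 241 in DDIT3, 196 (E-box) and 54 (cyclic AMP response element) in MAFF, and 105 and 83 in EGR1.

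No searched pattern contains another. The cyclic AMP response element was found in 4.4% of 1562 windows of genes called higher, 1.8% of 1841 windows of genes called lower, 2.8% of all described genes with a window and 1.8% of 27305 windows in the table. The corresponding shares were 0.4%, 0.3%, 0.4% and 0.8% for the C/EBP-ATF response element, 4.2%, 3.3%, 4.0% and 6.6% for the AP-1 element, and 8.7%, 9.8%, 8.8% and 6.5% for the E-box. They were 1.6%, 1.2%, 1.0% and 1.1% for the CArG box and 0.2% in each set for the NF-kB motif. These are descriptions of letters in a short window, with no test of binding.

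Early response genes came next. Of the AP-1 factors, 6 of 10 were called higher and 0 lower (5 and 0 without YC-1 replicate 1), and among EGR, NR4A, IER and KLF genes 12 of 16 were called higher and 1 lower (12 and 0 without YC-1 replicate 1). The latter list holds 21 genes, of which EGR2, EGR3, EGR4, KLF2 and NR4A1 were below the minimum. MAFF, a small MAF factor without a transactivation domain, stood at 209.8, 158.7 and 164.6 with DMSO and 1685, 1456 and 1423 with YC-1 (3.10 ± 0.12, adjusted p = 1.48e-13). FOSB, a partner of JUN, went from 85.23, 91.68 and 97.52 to 855.8, 569.3 and 532.2 (2.79 ± 0.35, adjusted p = 4.13e-06), highest in replicate 1, and the small MAF gene MAFK rose by 1.47 ± 0.26. JUN rose by 0.53, and its call was lost without YC-1 replicate 1 (0.36, adjusted p = 0.107) or DMSO replicate 1 (adjusted p = 0.0521).

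Zinc finger and nuclear receptor genes were among the higher ones. EGR1 went from 54.04, 60.63 and 49.84 to 403.4, 349.5 and 338.8, a log2 fold change of 2.71 ± 0.26 (SE, adjusted p = 9.3e-08) with no overlap between groups. NR4A2 went from 21.43, 21.11 and 29.26 to 330.9, 246.7 and 231.6 (3.44 ± 0.28, adjusted p = 8.01e-09), and the Krüppel-like factor KLF4 from 82.76, 94.27 and 105.2 to 389.9, 411.7 and 460.8 (2.15 ± 0.16, adjusted p = 3.93e-09). MYC stood at 3526, 3340 and 3420 and 4806, 3608 and 3979 and did not pass the test (adjusted p = 0.0938), though it did without YC-1 replicate 2 (0.0354). MXD1, a MAX partner that competes with MYC, rose from 147.4, 124.7 and 107.3 to 591.8, 745.3 and 671.8 (2.40 ± 0.15), and 3 of 11 were called higher and 1 lower in the MYC, MAX and MXD network, MXI1 (0.89) and MLX (0.36) among them. Scaled to ribosomal protein genes, this network gave 1 higher and 2 lower, and MXI1 and MLX were not called.

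The phosphatases and Sprouty proteins that switch off MAP kinase signalling were higher in 8 of 15 cases and lower in 2, with or without YC-1 replicate 1. DUSP6, a phosphatase of ERK, went from 72.85, 48.25 and 65.02 to 546.9, 319.1 and 379.4, a log2 fold change of 2.71 ± 0.21 (SE, adjusted p = 3.94e-09). DUSP4 stood at 262.8, 205.9 and 238.7 and 1035, 1067 and 1072 (2.17 ± 0.10, adjusted p = 1.39e-12), with YC-1 libraries that differed little from each other. SPRY2, an inhibitor of receptor tyrosine kinase signalling, rose by 1.61 ± 0.11 and DUSP1, which acts on p38 and JNK, by 1.56 ± 0.09.

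HBEGF and EREG, ligands of the EGF receptor, rose, and EGFR, the receptor gene, fell. HBEGF, a membrane-bound ligand of the EGF receptor, had the lowest p-value of the genes named: 3202, 3156 and 3111 with DMSO and 22288, 21116 and 22329 with YC-1, a log2 fold change of 2.79 ± 0.07 (SE, adjusted p = 2.51e-17) and 2.78 without YC-1 replicate 1. EREG, another ligand, went from 20.5, 17.36 and 12.46 to 57.82, 74.96 and 60.73 (1.90 ± 0.29), and ERRFI1, an inhibitor of the receptor, rose by 1.91 ± 0.17. EGFR went from 20589, 21043 and 18269 to 9689, 11592 and 10731, a log2 fold change of -0.91 ± 0.13 (SE, adjusted p = 1.44e-05). Over the 11 genes of the family 3 were called higher and 2 lower, or 4 and 2 without YC-1 replicate 1.

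NF-kB factors and cytokines, which carry inflammatory signals, moved in part. On the list of NF-kB factors and cytokines 11 of 21 were called higher and 3 lower, or 9 and 2 without YC-1 replicate 1. The list holds 26 genes, of which CXCL1, CXCL6, IL1A, IL1B and TNF were below the minimum. CCL20 and IL6 were under 10 in all DMSO libraries and passed only through their YC-1 values, which favours a higher call. CXCL8, which attracts neutrophils, was at 807.5, 716.3 and 614.4 with DMSO and 4391, 6385 and 6652 with YC-1 (3.01 ± 0.23, adjusted p = 4.17e-09). IL11 went from 11.97, 8.017 and 9.268 to 143.9, 87.45 and 102.7 (3.37 ± 0.38) and IL6 from 6.499, 9.86 and 8.815 to 106, 80.44 and 87.48 (3.30 ± 0.53), with no overlap between groups in either gene.

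Genes of growth arrest and cell death were among the higher ones. PMAIP1 (NOXA), a killer protein of the BCL2 family, went from 421, 408.2 and 287.9 to 3053, 6510 and 5799, lowest in replicate 1, with a log2 fold change of 3.72 ± 0.21 (SE, adjusted p = 5.37e-11) and 4.06 without it. GDF15, a secreted stress cytokine, went from 2758, 3039 and 3338 to 23628, 12312 and 12006 (2.32 ± 0.27, adjusted p = 1.15e-06 with and 6.53e-06 without replicate 1, where it was highest). GADD45A rose by 2.33 ± 0.15, the antiproliferative factor BTG2 by 1.86 ± 0.09 and the CDK inhibitor CDKN1A by 1.61 ± 0.12. MDM2, a ubiquitin ligase, stood at 2541, 2418 and 1966 and 1346, 3326 and 3865, with replicate 1 below and replicates 2 and 3 above all DMSO libraries. Its log2 fold change was 0.17 (adjusted p = 0.662) with all libraries and 0.64 (adjusted p = 0.00163) without replicate 1.

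Among 15 BCL2 family genes 1 was called higher, PMAIP1, and 3 lower, and 3 were called higher without YC-1 replicate 3. BMF, a sensor protein that promotes death, went from 464.4, 404.5 and 418.7 to 74.19, 46.36 and 52.94 (-2.90 ± 0.25, adjusted p = 1.84e-08), BCL2L1 from 10978, 10670 and 11314 to 7273, 5727 and 5911 (-0.81 ± 0.10) and BCL2 from 233.1, 178.1 and 225.3 to 123.9, 92.03 and 77.5 (-1.13 ± 0.29). The groups did not overlap in these 3 genes. MCL1, a short-lived survival protein, stood at 7174, 7113 and 5861 and 4173, 6227 and 6021 and did not pass the test (adjusted p = 0.102, and 0.045 without YC-1 replicate 2).

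Part of the genes of the start of S phase were lower. Of 41 genes of the G1/S transition and DNA replication, 0 were called higher and 20 lower (1 and 23 without YC-1 replicate 1), with 13 lower when only the 12 SNU1079 libraries were fitted and 2 when a fold change past 1.5 was tested for, against the background of 16.3% lower, and their median log2 fold change was -0.41. FEN1, which trims Okazaki fragments, stood at 2391, 2375 and 2457 with DMSO and 781.5, 823.3 and 881.8 with YC-1, a log2 fold change of -1.54 ± 0.15 (SE, adjusted p = 2.03e-07). GINS1, a subunit of the replicative helicase, went from 1843, 1631 and 1315 to 563.3, 768.1 and 723.5 (-1.22 ± 0.15), and POLA1 and GINS2 fell (-0.91 and -0.71). The CDK phosphatase CDC25A went from 576.9, 530.9 and 601.6 to 188.5, 235.4 and 222.6 (-1.40 ± 0.19) and the kinase CDK6 from 9410, 9282 and 7474 to 3410, 4029 and 3230 (-1.29 ± 0.16). CDKN1B was called higher (0.61, adjusted p = 0.0399) but not when DMSO replicate 1 or 3 or YC-1 replicate 2 or 3 was left out (adjusted p = 0.0503 to 0.216). Over G1 cyclins and CDK inhibitors 2 of 13 were called higher and 3 lower, or 2 and 4 without YC-1 replicate 1, and 1 was called higher when DMSO replicate 1 or 3 or YC-1 replicate 2 or 3 was left out.

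Repair genes were lower in part, and the count of lower mitotic genes depended on the library left out. Of 28 Fanconi, recombination and checkpoint genes 0 were called higher and 11 lower (0 and 8 without YC-1 replicate 1). BRIP1, a helicase of the Fanconi pathway, went from 897.3, 875.3 and 718.3 to 197.9, 335.2 and 348.7 (-1.53 ± 0.20), lowest in replicate 1, and XRCC2, a gene of homologous recombination, from 558.3, 627.3 and 503.7 to 150.5, 280.1 and 230.2 (-1.39 ± 0.21). FANCM fell (-1.27 with all libraries, -0.80 without replicate 1), and BARD1 (-1.15 and -1.31). Of 28 genes of G2 and mitosis, 8 were called lower with all libraries, 4 without DMSO replicate 1 or 2, 5 without DMSO replicate 3, 3 without YC-1 replicate 1, 9 without YC-1 replicate 2 and 10 without YC-1 replicate 3. With all libraries 1 was called higher, and 0 without DMSO replicate 2 or YC-1 replicate 1. TTK, a kinase of the spindle checkpoint, stood at 491.5, 412.3 and 364.6 and 67.93, 212.4 and 198.2 (-1.56, and -1.03 without replicate 1), and the checkpoint protein BUB1B fell (-0.80). FANCM and TTK lost their calls when only the 6 libraries were fitted (adjusted p = 0.0948 and 0.0779). CCNA2 and ANLN were called lower with all libraries but not without YC-1 replicate 1 (adjusted p = 0.202 and 0.177), nor without DMSO replicate 1 or 2 (0.0878 and 0.0685 for CCNA2, 0.132 and 0.11 for ANLN), and ANLN also not without DMSO replicate 3 or YC-1 replicate 2 (0.0625 and 0.0647).

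**Figure D3:**
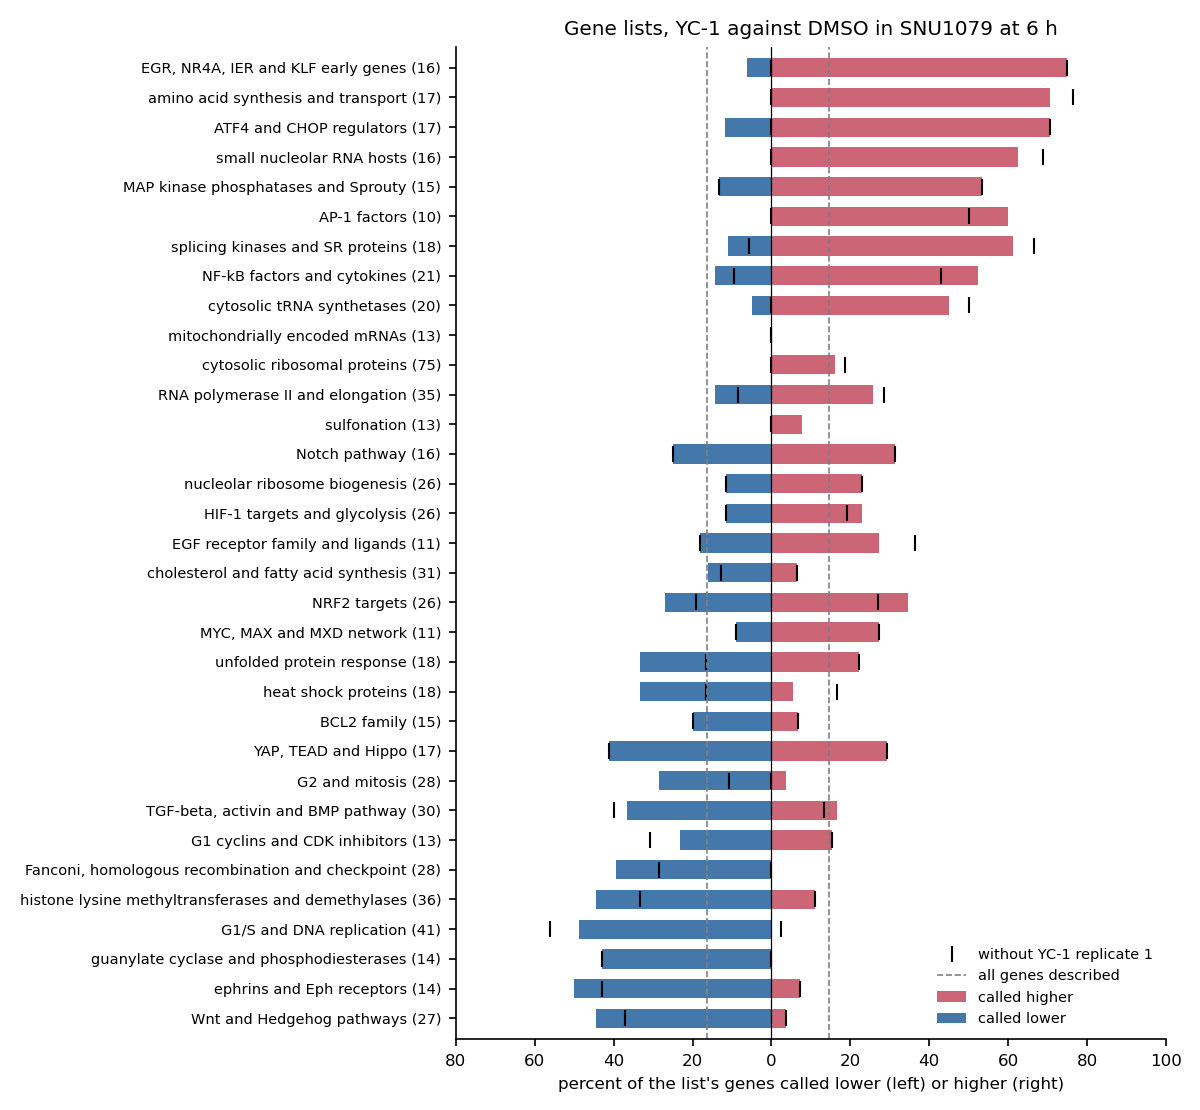
Percent of each list's described genes (number in brackets) called higher (right) or lower (left) with YC-1, ordered by the list's median log2 fold change, with ticks for the fit without YC-1 replicate 1 and dashed lines at 14.5% higher and 16.3% lower for all genes described. Early genes, amino acid genes and ATF4 regulators lie furthest to the right, and ephrin, replication, and Wnt and Hedgehog genes lie furthest to the left.

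Several genes over 100 kb stood at the low end of the fold changes. MAML3, a Mastermind coactivator that bridges Notch to the transcription machinery, lies at chr4:139716753-140154184 (hg38) and spans 437.4 kb. It went from 101.5, 145.7 and 89.15 to 2.004, 3.16 and 3.485, a log2 fold change of -4.85 ± 0.79 (SE, adjusted p = 7.18e-05). MAML2, its paralog of 366.6 kb, went from 245.9, 189 and 188.2 to 12.62, 13.9 and 14.92 (-3.81 ± 0.64, adjusted p = 0.000102), whereas MAML1, of 44.4 kb, stood at 1101, 1115 and 1371 and 1494, 1293 and 1299 (adjusted p = 0.526). In both called genes each YC-1 library was under each DMSO library by a wide margin, and the fold changes without YC-1 replicate 1 were -4.68 and -3.75.

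Other genes of this group belong to different pathways. PDE4D, a cyclic AMP phosphodiesterase of 1553.1 kb, went from 156.9, 141.8 and 158.6 to 6.42, 18.38 and 8.803 (-3.77 ± 0.67, adjusted p = 0.000193). GLI2, a transcription factor of Hedgehog signalling, went from 323, 322.5 and 439.4 to 25.68, 52.29 and 23.31 (-3.46 ± 0.53, adjusted p = 4.14e-05), and PPARGC1B, a coactivator of mitochondrial genes, from 207.7, 188 and 191.3 to 8.229, 11.79 and 17.72 (-3.92 ± 0.34, adjusted p = 2.38e-08). PHLPP1, a phosphatase of AKT, fell (-2.87), NCKAP5 (-3.59), FAM155A (-2.85) and the Ral exchange factor RGL1 (-2.83). ZBTB45P2, a pseudogene of 1.5 kb at 251.8, 59.82 and 109.8 and 0, 15.56 and 16.06, was called with all libraries (adjusted p = 0.0242), but not without YC-1 replicate 1 (0.143), DMSO replicate 1 (0.0966) or DMSO replicate 3 (0.0548). ENSG00000215298 was at 170.8, 182.8 and 139.3 with DMSO and 50.41, 0 and 47.69 with YC-1, and its call was lost without YC-1 replicate 2 (adjusted p = 0.111).

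Developmental pathways held many lower genes. Of 27 genes of the Wnt and Hedgehog pathways 1 was called higher and 12 lower (1 and 10 without YC-1 replicate 1). TCF7L2, the main nuclear partner of beta-catenin in epithelia, went from 182.9, 174.5 and 153.1 to 34, 18.36 and 37.21 (-2.53 ± 0.60, adjusted p = 0.00284). ZNRF3, a ubiquitin ligase that removes Wnt receptors, went from 569.5, 544.6 and 488 to 140.6, 114.4 and 110 (-2.13 ± 0.19, adjusted p = 3.41e-08), and the coreceptor LRP6 fell (-1.63). In the TGF-beta, activin and BMP pathway, 5 of 30 were called higher and 11 lower (4 and 12 without YC-1 replicate 1, and 1 and 12 when scaled to ribosomal protein genes). The BMP receptor BMPR1A went from 899.4, 1039 and 985.1 to 141.2, 200 and 245.9 (-2.34 ± 0.43, adjusted p = 0.000247), and the corepressor SKI and the inhibitor SMAD6 fell (-1.44 and -1.31). TGFBR3 was called with all libraries (-2.07, adjusted p = 0.0145) but not without DMSO replicate 1 (0.0514), DMSO replicate 2 (0.0646) or YC-1 replicate 2 (0.117), and its groups overlapped.

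Notch genes moved in both directions, 5 of 16 higher and 4 lower in either fit, and 4 and 5 when scaled to ribosomal protein genes. JAG1, a Notch ligand, went from 3937, 3806 and 4022 to 26850, 21986 and 22554, a log2 fold change of 2.60 ± 0.09 (SE, adjusted p = 2.02e-14). DLL4, another ligand, went from 11.07, 2.471 and 4.63 to 84.47, 65.85 and 52.97 (3.45 ± 0.39, adjusted p = 8.05e-07), and the coactivators MAML2 and MAML3 fell in the same libraries. Ephrins and their receptors were lower in 7 of 14 cases and higher in 1 (6 and 1 without YC-1 replicate 1, and 4 lower without DMSO replicate 2 or 3 or YC-1 replicate 3). EFNA5 went from 369.2, 306.5 and 319.2 to 56.97, 65.3 and 27 (-2.80 ± 0.46) and EFNA4 from 217.9, 246.6 and 241.9 to 62.2, 44.76 and 48.44 (-2.18 ± 0.22), while the receptor EPHA2 rose by 1.38 ± 0.15. EPHB1 was at 740.4, 721.5 and 698.6 with DMSO and 184.7, 172.1 and 154.2 with YC-1, and its call (adjusted p = 0.0259) was lost when any 1 library other than YC-1 replicate 1 was left out (0.0546 to 0.0667). Those fits take their spread from all groups of the series, and with only the 6 libraries compared the adjusted p of EPHB1 was 0.000833. YAP, TEAD and Hippo genes gave 5 higher and 7 lower of 17 in either fit, 1 and 8 when scaled to ribosomal protein genes, and 3 higher without DMSO replicate 3 or YC-1 replicate 3. Of these, TEAD4 fell (-0.90), TEAD1 (-0.67) and CYR61, a secreted matrix protein, (-0.70), and AMOTL1 (-1.62) lost its call without YC-1 replicate 1 (adjusted p = 0.0738) or DMSO replicate 3 (0.0817). TEAD1 lost its call when only the 6 libraries were fitted (adjusted p = 0.0648).

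The length of a gene on the chromosome went with its direction. Among 489 genes that span over 300 kb, 48.5% were called lower and 1.2% higher. For the 2130 genes of 100 to 300 kb the shares were 42.0% and 2.3%, for 4534 genes of 30 to 100 kb 14.3% and 12.6%, for 3948 genes of 10 to 30 kb 7.5% and 22.3%, and for 3736 genes under 10 kb 9.3% and 17.2%. Without YC-1 replicate 1 the longest class gave 44.4% lower and 1.8% higher, with the GC trend removed 49.3% and 1.8%, and with libraries scaled to ribosomal protein genes 51.9% and 0.4%. Across 14837 genes the Spearman correlation of fold change with span was -0.31, or -0.22 without that replicate, and with the summed exon length it was -0.19. Median DMSO levels differed between the classes, at 135.6 for genes under 10 kb and 318.3 for those over 300 kb. Spans came from GENCODE 29 on GRCh38.

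**Figure D4:**
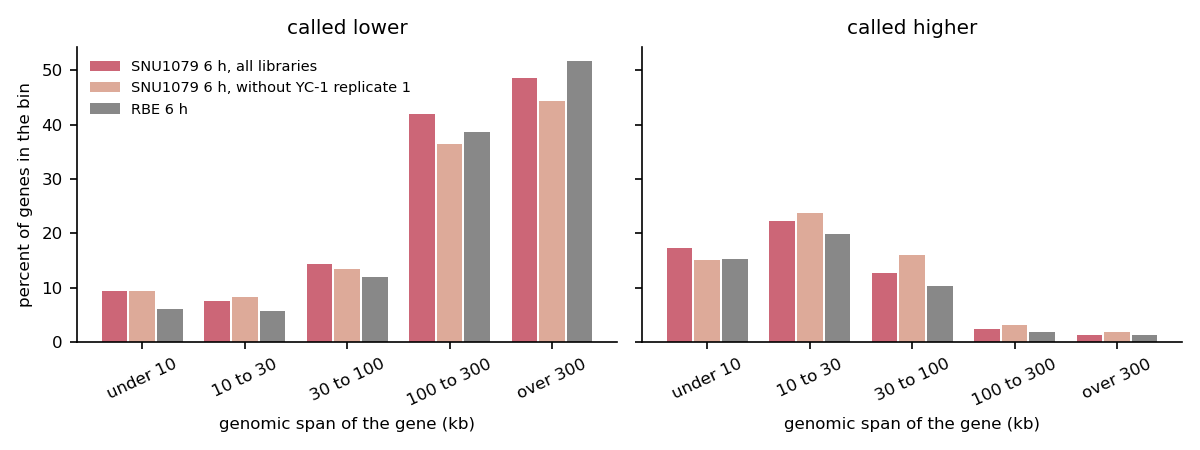
Percent of genes called lower (left panel) and higher (right panel) in 5 classes of genomic span, for SNU1079 at 6 h with all libraries, without YC-1 replicate 1, and for RBE at 6 h. The share of lower genes goes from 9.3% under 10 kb to 48.5% over 300 kb in SNU1079 and to 51.7% in RBE, and the share of higher genes from 17.2% to 1.2%.

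The longest genes were not all called. The 5 longest genes tested were CNTNAP2 (2305.0 kb), PTPRD, DMD, DLG2 and CSMD1 (2059.6 kb), of which DLG2 was below the minimum here. PTPRD, a receptor tyrosine phosphatase, stood at 455.8, 456.3 and 513.3 with DMSO and 312.7, 336.9 and 451.7 with YC-1 (-0.39 ± 0.47, adjusted p = 0.598), CNTNAP2 at 69.38, 47.82 and 45.71 and 29.27, 43.06 and 42.86 (-0.49 ± 0.49, adjusted p = 0.513), and DMD at 8.628, 10.61 and 10.04 and 14.12, 4.832 and 2.638 (-0.65 ± 0.69, adjusted p = 0.545). CSMD1 was called lower (-1.23, adjusted p = 0.0268), but not without DMSO replicate 2 (0.107), DMSO replicate 3 (0.113) or YC-1 replicate 3 (0.115). The 6 genes over 300 kb that were called higher, named after their values were seen, were PRKCH (1.30), DCLK1 (1.07), DYNLRB2-AS1 (1.04), AHR (0.84), CREB5 (0.78) and OXR1 (0.60). The span of AHR (429.8 kb, chr7:16916359-17346152) rests on a distal start in GENCODE 29. Its RefSeq promoter window lies inside that extent, at chr7:17298402-17298651. PRKCH, a protein kinase C, stood at 63.9, 75.61 and 81.29 with DMSO and 180.6, 196 and 171.1 with YC-1, with no overlap between groups.

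Genes of guanylate cyclase, a known target of YC-1, were listed together with kinases and phosphodiesterases, the cyclic AMP phosphodiesterase PDE4D among them. Part of this list was called lower. Of 14 guanylate cyclase, kinase and phosphodiesterase genes, 0 were called higher and 6 lower with or without YC-1 replicate 1, against the background of 16.3% lower. Scaled to ribosomal protein genes the counts were 0 and 8. Of the genes called lower, PDE4D spans 1553.1 kb, PDE11A 449.5 kb, PDE5A 134.6 kb and PDE4A 52.9 kb. Among all described genes, 48.5% of those over 300 kb, 42.0% of those of 100 to 300 kb and 14.3% of those of 30 to 100 kb were called lower. Whether the list differs from other genes of like span was not tested. The cyclase subunits GUCY1A3 and GUCY1B3 stood at 294.9, 275.9 and 297.7 and 300.3, 330.1 and 315.5 with DMSO and at 134.7, 233.5 and 187.8 and 177.9, 299 and 290.4 with YC-1. Neither passed the test (adjusted p = 0.0515 and 0.379). GUCY1A3, whose groups did not overlap, was called lower under 12 of the 26 alternatives, among them without YC-1 replicate 2 (0.027). PDE5A, which breaks down cyclic GMP, went from 241.2, 173.4 and 134.6 to 60.73, 118.7 and 61.07 (-1.21 ± 0.32), and PDE11A and PDE4A fell (-1.27 and -0.91). PDE5A lost its call when only the 6 libraries were fitted (adjusted p = 0.0757).

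HIF-1 targets and glycolytic genes gave 6 higher and 3 lower of 26, or 5 and 3 without YC-1 replicate 1, and 0 lower without DMSO replicate 1 or YC-1 replicate 2 or 3 and 1 lower without DMSO replicate 2 or 3. HIF1A stood at 10308, 10034 and 12062 and 8952, 10256 and 10141 (adjusted p = 0.491). VEGFA, an angiogenic factor, went from 4889, 5069 and 4995 to 12311, 10459 and 10807, a log2 fold change of 1.16 ± 0.08 (SE, adjusted p = 9.02e-10), and the peptide hormone ADM, NDRG1 and EPAS1 (HIF-2 alpha) rose by 1.33, 0.96 and 0.89. The groups did not overlap in these 4 genes.

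The aryl hydrocarbon receptor, which binds planar aromatic ligands, rose while its classical target fell. AHR went from 2514, 2352 and 2053 to 3061, 4621 and 4897 (0.84 ± 0.21, adjusted p = 0.00429), lowest in replicate 1. CYP1A1, the target induced by its ligands, went from 50.95, 30.38 and 56.34 to 21.49, 13.75 and 19.97 (-1.25 ± 0.30, adjusted p = 0.00295), but CYP1B1, another target, rose from 1644, 1997 and 1574 to 4307, 4192 and 4333 (1.31 ± 0.13, adjusted p = 2.49e-07). Of 8 genes of this list 3 were called higher, NQO1 (0.32) among them, and 1 lower in either fit. Scaled to ribosomal protein genes the counts were 1 and 1, with AHR and NQO1 not called. CYP1A1 lost its call when only the 6 libraries were fitted.

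Among sulfonation genes 1 of 13 was called at 6 h. SULT1A1 stood at 1391, 1465 and 1478 with DMSO and 1912, 1322 and 1619 with YC-1, overlapping (adjusted p = 0.549). The called gene was SULT1A2 (0.57, adjusted p = 0.0242), lost without YC-1 replicate 1 (0.0924), YC-1 replicate 3 (0.0608), DMSO replicate 1 (0.0997) or DMSO replicate 2 (0.0595), and it is similar in sequence to SULT1A1. IDH1 stood at 1594, 1514 and 1344 and 1485, 1901 and 1931 (adjusted p = 0.14, and 0.0262 without YC-1 replicate 1), and IDH2 at 1322, 1279 and 1431 and 1711, 1276 and 1285 (adjusted p = 0.716).

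Protein folding genes split. HSPA8, the constitutive cytosolic chaperone, went from 76655, 70630 and 73821 to 29215, 28960 and 33470, a log2 fold change of -1.27 ± 0.12 (SE, adjusted p = 5.08e-08). Of 18 heat shock genes 1 was called higher and 6 lower, but 3 and 3 without YC-1 replicate 1. HSPA1A fell (-0.80) and HSPA1B (-0.91), values that are uncertain because these copies are nearly identical, and DNAJB4 rose by 0.91. In the endoplasmic reticulum list 4 of 18 were called higher and 6 lower, 3 of them lower without YC-1 replicate 1 or DMSO replicate 1. The sensor kinase gene ERN1 (IRE1) rose by 1.47 ± 0.23, its target XBP1 from 1198, 1155 and 1209 to 3315, 3070 and 3351 (1.45 ± 0.09, adjusted p = 2.52e-10) and HERPUD1, of protein degradation, by 1.28 ± 0.12. SDF2L1 fell (-1.27). HSPA5 (BiP), the main chaperone of that compartment, stood at 21991, 21906 and 22651 and 22701, 26080 and 29041, and its call (0.22, adjusted p = 0.0484) was lost when any 1 library other than YC-1 replicate 1 was left out (0.0778 to 0.262).

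NRF2 targets gave 9 higher and 7 lower of 26 (7 and 5 without YC-1 replicate 1, 4 lower without DMSO replicate 2 or 3, and 5 and 8 when scaled to ribosomal protein genes). OSGIN1 rose from 264.5, 261.1 and 317.4 to 1267, 721.1 and 829.7 (1.70 ± 0.23), and SRXN1, which repairs oxidised peroxiredoxins, and the small MAF gene MAFG each rose by 1.03. HMOX1, heme oxygenase, went the other way, from 1597, 1681 and 1691 to 1153, 837.9 and 825.4 (-0.84 ± 0.15, adjusted p = 0.000206). Cholesterol and fatty acid genes gave 2 higher and 5 lower of 31 (2 and 4 without YC-1 replicate 1), with 0 higher without DMSO replicate 2 and 1 higher without DMSO replicate 1 or 3 or YC-1 replicate 2. Scaled to ribosomal protein genes they gave 0 higher and 6 lower. INSIG1, which holds back SREBP processing, went from 641.3, 591.8 and 467.2 to 148, 217.5 and 174.5 (-1.65 ± 0.16). ELOVL6 (-1.21) lost its call without YC-1 replicate 1 (adjusted p = 0.0717), and TM7SF2 (0.70) without YC-1 replicate 1 or 2 or DMSO replicate 2 or 3 (adjusted p = 0.0572 to 0.0894).

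RNA polymerase II genes moved in both directions. POLR2A, the largest subunit of RNA polymerase II, went from 3192, 3524 and 3184 to 24093, 18151 and 18679, a log2 fold change of 2.61 ± 0.13 (SE, adjusted p = 1.04e-11) and 2.48 without YC-1 replicate 1. Over 35 polymerase and elongation genes 9 were called higher and 5 lower (10 and 3 without that replicate), which turned to 3 and 6 with ribosomal protein genes as the scale. CCNT1, the cyclin of the elongation kinase, rose by 0.83 ± 0.19, but was not called when scaled to ribosomal protein genes. ELL (-0.85) and AFF1 (-0.82), of the super elongation complex, were called lower, ELL not without YC-1 replicate 3 (adjusted p = 0.0599) and AFF1 not without DMSO replicate 1 (0.0659).

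Splicing kinases and SR proteins gave 11 higher and 2 lower of 18, or 12 and 1 without YC-1 replicate 1, and 7 and 2 when scaled to ribosomal protein genes. SRSF6 went from 3141, 3057 and 2956 to 8940, 8816 and 9088 (1.55 ± 0.08, adjusted p = 9.61e-12), TRA2A from 1353, 1104 and 1200 to 3830, 3791 and 3397 (1.59 ± 0.14) and the kinase CLK1 from 442.9, 456.2 and 434.8 to 542.5, 1208 and 1237 (1.07 ± 0.22, 1.46 without replicate 1), while the kinase SRPK2 fell (-0.88). CLK1 lost its call when only the 6 libraries were fitted. Host transcripts of small nucleolar RNAs gave 10 higher and 0 lower of 16 (11 and 0 without YC-1 replicate 1). SNHG15 went from 571.8, 627.1 and 665.6 to 3458, 2434 and 3257 (2.28 ± 0.20, adjusted p = 2.88e-08) and GAS5 from 1713, 1802 and 1667 to 5339, 5338 and 6253 (1.70 ± 0.10, adjusted p = 8.87e-11), and EPB41L4A-AS1 and SNHG12 rose by 1.76 and 1.67. As background, such host transcripts are known to be unstable.

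Ribosomal protein genes were called higher at a share close to the background, and with all libraries were not called lower. Of 75 cytosolic ribosomal protein genes 12 were called higher and 0 lower (14 and 0 without YC-1 replicate 1, 7 higher without DMSO replicate 1 or YC-1 replicate 3). The share of higher calls was near the 14.5% of all genes described, of which 16.3% were called lower. Scaled to these genes themselves the counts were 2 and 1. RPL12 rose by 0.55, RPL10A by 0.43 and RPL19 by 0.39. Nucleolar genes of ribosome assembly gave 6 higher and 3 lower of 26 in either fit, 2 and 3 when scaled to ribosomal protein genes, with NOP2 at 0.77, NOP56 at 0.61 and UTP20 at -0.67. RPL19 and UTP20 lost their calls when only the 6 libraries were fitted (adjusted p = 0.0659 for UTP20). POLR1A, of RNA polymerase I, was called lower (-0.51) but not without YC-1 replicate 3 (adjusted p = 0.0569). The 13 mitochondrially encoded mRNAs gave 0 calls in either direction.

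Histone methyltransferases and demethylases were lower in 16 of 36 cases and higher in 4 (12 and 4 without YC-1 replicate 1). JARID2, a cofactor of Polycomb of 275.7 kb, went from 856.7, 872.6 and 840.3 to 153.7, 124.2 and 132.4 (-2.64 ± 0.33, adjusted p = 3.59e-06). KDM6B, a histone H3 lysine demethylase of 14.9 kb, rose from 405.1, 302.3 and 322.1 to 2301, 1639 and 1741 (2.46 ± 0.36, adjusted p = 2.4e-05), and its paralog KDM6A (239.4 kb) fell from 303.4, 359.3 and 253.5 to 46.54, 83.68 and 136.6 (-1.89 ± 0.29, adjusted p = 3.44e-05). KMT2C, a histone H3 lysine methyltransferase, fell (-1.86). Bile duct markers gave 2 higher and 1 lower of 9, with SOX9 at 815.4, 760 and 605.3 and 2228, 2762 and 2152 (1.71 ± 0.14, adjusted p = 1.35e-08). CLDN4 (0.58, adjusted p = 0.0499) lost its call without YC-1 replicate 1 (0.259) or any 1 DMSO library (0.0747 to 0.119).

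A small set of genes was listed near 0 until YC-1 was added. At 1 or less in all DMSO and at least 10 in all YC-1 libraries there were 20 genes, and 0 in the reverse case. After RPL36A-HNRNPH2 the highest were ENSG00000235862 at 81.94, 87.56 and 59.41, NHLH1, a neuronal transcription factor, at 51.7, 47.7 and 47.79 and ENSG00000224635 at 34, 37.23 and 44.37. ENSG00000235862 lies on the opposite strand just downstream of ATF3 and overlaps FAM71A there, named here after its values were seen, which was itself at 0 in the DMSO libraries and at 23.95, 19.94 and 31.9 with YC-1. The strand setting of the counting is not given in the sources used here, so reads of these 2 genes cannot be told apart.

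RBE at 6 h was the nearest comparison, and shared no library with this one. Across the 15298 genes the Spearman correlation of the fold changes in the 2 lines was 0.68, or 0.63 without YC-1 replicate 1, genes being no independent replicates. The effect differed between the lines for 248 genes (1.62% of those described), with 112 more positive in SNU1079 and 136 more negative, by limma's interaction contrast at adjusted p under 0.05. Over all genes tested the count was 275, and 412 without YC-1 replicate 1.

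ATF4 and some of its targets were among the positive differences, and MAP kinase regulators differed in both directions. Of the 15 MAP kinase phosphatase and Sprouty genes, 4 differed in the positive direction and 3 in the negative. ATF4 was at a log2 fold change of 1.04 in SNU1079 and -0.08 in RBE, a difference of 1.12 ± 0.14 (SE, adjusted p = 9.05e-05). ASNS was at 2.83 and 1.24 (1.59 ± 0.15, adjusted p = 4.83e-06) and CHAC1 at 4.11 and 2.13 (1.98 ± 0.28, adjusted p = 0.000431), while for ATF3 (5.18 and 5.66) and DDIT3 (3.15 and 3.24) no difference passed (adjusted p = 0.628 and 0.96). DUSP4 was at 2.17 and -0.04 (2.21 ± 0.14, adjusted p = 6.88e-09), and JAG1 at 2.60 and 1.39 (1.20 ± 0.12, adjusted p = 1.04e-05). SOX9 (1.39), SPRY2 (0.87), DUSP6 (1.19), HBEGF (0.67), CARS (0.70) and GARS (0.60) also differed in this direction, and DUSP1 (-0.82) in the other. The fold changes started from different levels in the lines for some of these genes, with no test made of the levels. With DMSO, mean normalised counts in RBE (± SD, n = 3) were 6968 ± 432 for ATF4, 1372 ± 37.8 for DUSP4, 3685 ± 217 for ASNS, 294.8 ± 77.1 for CHAC1 and 4134 ± 220 for JAG1, against 3449, 235.8, 1288, 60.46 and 3922 in SNU1079. With YC-1 the means were 6574, 1335, 8713, 1264 and 10850 in RBE, and 7110, 1058, 9199, 1096 and 23797 in SNU1079. For ATF4, DUSP4, ASNS and CHAC1 the lines stood closer together with YC-1 than with DMSO.

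Replication genes went apart between the lines. Of the 41 genes 16 differed, all more negative in SNU1079, and RBE had 12 called higher and 3 lower with a median of 0.25. FEN1 was at -1.54 in SNU1079 and -0.31 in RBE, a difference of -1.22 ± 0.22 (adjusted p = 0.00399), and GINS2 at -0.71 and -0.05 (-0.66 ± 0.13). XRCC2 (-1.39), BMF (-1.55), HMOX1 (-1.14) and HSPA5 (-0.65) differed in the same direction. In the cholesterol list 4 genes differed in the positive direction, and RBE had 0 called higher and 10 lower.

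**Figure D5:**
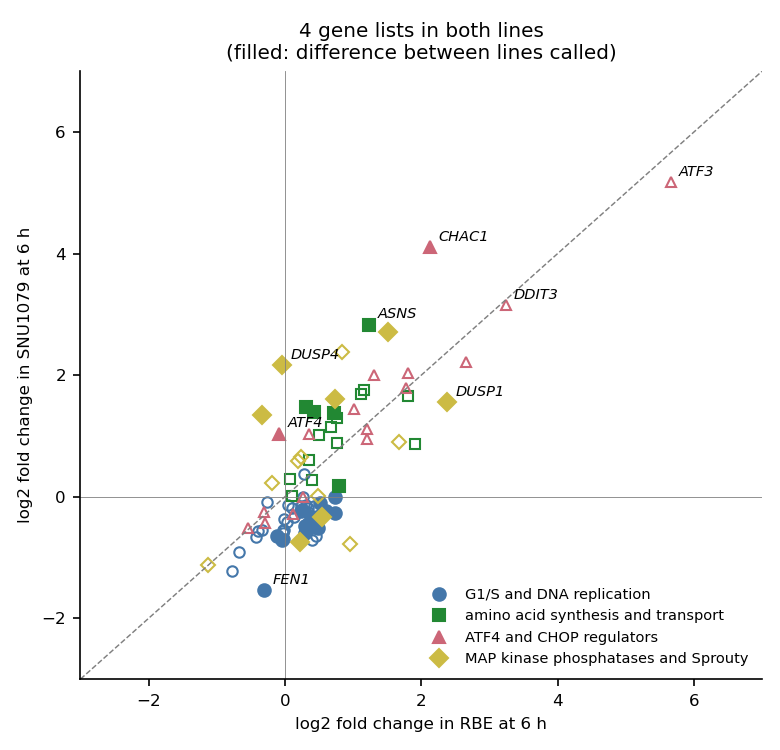
Log2 fold changes in SNU1079 (vertical axis) against RBE (horizontal axis) at 6 h for 4 gene lists, with filled symbols where the difference between the lines was called and a dashed line of equal effects. Replication genes with a called difference lie below the line, and ATF4, CHAC1, ASNS and DUSP4 above it.

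By the naming rule the largest positive differences were CCL20 (3.07 ± 0.54, adjusted p = 0.00373), THSD1 (3.52 ± 0.68), ARHGAP31 (3.41 ± 0.56) and KIAA1549L (3.25 ± 0.66). The last 2 were low in SNU1079, with ARHGAP31 at 2.133, 0.8945 and 0 and 16.23, 10.32 and 10.41, and the SNU1079 call of KIAA1549L was lost without DMSO replicate 3 (adjusted p = 0.0607). On the negative side stood PDE4D (-4.41 ± 0.95, adjusted p = 0.0151), CYP1A1 (-2.91 ± 0.42), NHS (-2.38 ± 0.46) and EMC3-AS1 (-2.32 ± 0.52). PDE4D was at 124.5, 209 and 153.6 with DMSO and 205.4, 258.7 and 283.3 with YC-1 in RBE. CYP1A1 rose in RBE by 1.66. NHS was listed at 0 in all RBE libraries at 6 h, so its difference rests on SNU1079 alone, where it went from 720.3, 636.1 and 613 to 88.7, 168 and 132.2. EMC3-AS1 was not called in SNU1079 (adjusted p = 0.0995), except without DMSO replicate 3 (0.0131).

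Against the later time, which had its own DMSO libraries, the effect differed for 2840 genes (18.6%). Of the 4703 genes called at 6 h, 1264 differed from 16 h: 985 were larger with the same sign at 16 h, 95 smaller and 184 of opposite sign. The split of these differences moves with the scaling, from 1524 positive and 1512 negative over all genes tested to 3239 and 499 with libraries scaled to equal sums and 2178 and 352 when scaled to ribosomal protein genes, so their direction is not read across genes. Without YC-1 replicate 1 the count over all genes tested went from 3036 to 4691. The SNU1079 groups at 16 h also hold libraries that stand apart, with correlations to their mates down to 0.9589, and leaving out the 3 SNU1079 libraries that stand apart gave 5343.

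EGR1, AHR and CXCL8, chosen after their values were seen, had effects that differed between the times. EGR1 was at 2.71 and 0.40 (difference 2.31, adjusted p = 0.000234), AHR at 0.84 and -0.80 (difference 1.63, adjusted p = 0.000785) and CXCL8 at 3.01 and 5.51 (difference -2.50, adjusted p = 3.29e-05). For EGR1 and CXCL8 the DMSO levels differed between the times. Mean normalised counts of EGR1 with DMSO and with YC-1 were 54.84 and 363.9 at 6 h and 246.2 and 338.4 at 16 h, those of CXCL8 712.7 and 5809 at 6 h and 147.3 and 6825 at 16 h, and those of AHR 2306 and 4193 at 6 h and 2697 and 1590 at 16 h. The DMSO level at 16 h against 6 h was a log2 fold change of 2.14 for EGR1 (adjusted p = 1.58e-05), -2.26 for CXCL8 (adjusted p = 2.54e-06) and 0.22 for AHR (adjusted p = 0.613). The YC-1 means of EGR1 and CXCL8 lay closer together than their DMSO means, and for AHR the YC-1 means lay further apart. By the naming rule the most positive differences were PCLO (2.94), VAV3 (2.88), NR5A2 (2.65) and NHS (2.59), long genes that were lower by 16 h. NR5A2, a liver and bile duct nuclear receptor, was at -0.73 and -3.39, and PCLO at 0.42, not called at 6 h, and -2.52. NR5A2 also stood higher with DMSO at the later time (1.08, adjusted p = 0.000539), with means of 194.5 and 117.9 at 6 h and 417 and 38.84 at 16 h, whereas NHS had 656.5 and 129.6 at 6 h and 684.5 and 22.87 at 16 h (DMSO 0.04, adjusted p = 0.979). VAV3 was called at 6 h (-2.21, adjusted p = 0.0178) but not without YC-1 replicate 2 (0.1) or DMSO replicate 2 (0.056). The most negative were ENSG00000231850 (-7.83), ENSG00000261889 (-4.35), GBP4 (-3.99) and ENSG00000259001 (-3.73). GBP4 had means of 102.2 and 41.35 at 6 h and 8.156 and 46.68 at 16 h (DMSO -3.61, adjusted p = 0.00129), and the DMSO level of ENSG00000259001 fell as well (-1.39, adjusted p = 0.0476). At 6 h these were low or unsteady. ENSG00000231850 was listed at 0 in 5 of the 6 libraries, ENSG00000261889 was not called, GBP4 lost its call when any 1 library other than YC-1 replicate 2 was left out (adjusted p = 0.0654 to 0.254), and ENSG00000259001 when DMSO replicate 2 or 3 or YC-1 replicate 2 or 3 was left out (0.104 to 0.207).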

How the data were processed

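RNA of the 24 samples was sequenced as stranded messenger RNA libraries, per the labels' protocols. The submitters' processing notes name STAR, DESeq2 and hg38. The deposited table holds the authors' normalised counts (a signal scaled between libraries, not raw counts). No counting tool, strand setting or annotation is given in the sources used here. Whole reads could not be recovered, since 39.4% to 66.9% of values under 20 came within 0.1 of whole multiples of that library's commonest low value, so read depth is unknown. Rows with no gene name held 0.751% to 0.796% of the signal of the 6 libraries.

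Genes with at least 10 in at least 3 of the 24 libraries were fitted with limma 3.58.1 (R 4.3.3) on log2(normalised count + 1), with 1 mean per group and an intensity trend, and p-values were adjusted over 17860 genes. GENCODE 29 gave positions for 17258 of them, and RefSeq gave promoter windows. The fit was tested on simulated data. Genes were named by rule: the 12 highest and 12 lowest called fold changes, up to 4 per list, 4 in each direction per difference of effects, the 5 longest, the 4 highest genes silent under DMSO, and genes of interest such as SULT1A1. Genes and lists were chosen with earlier results of these data known. The alternatives covered pseudocounts, filters, scalings, weights, the replicate block, sample sets and each library left out. Leaving out the libraries that stand apart and removing the GC trend were chosen after seeing the data. Some genes and 1 gene list are not reported here.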

Additional observations from a re-analysis of the deposited data

Results flagged for a closer look

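The YC-1 effect at 6 h differed between SNU1079 and RBE, by limma's interaction contrast with adjusted p under 0.05, for 26 of the genes named. As log2 differences, SNU1079 minus RBE, the effect was more positive for CCL20 (3.07), CHAC1 (1.98), ASNS (1.59), CARS (0.70), GARS (0.60), DUSP6 (1.19), DUSP4 (2.21), SPRY2 (0.87), HBEGF (0.67), JAG1 (1.20), SOX9 (1.39), THSD1 (3.52), ARHGAP31 (3.41), KIAA1549L (3.25) and ATF4 (1.12). It was more negative for PDE4D (-4.41), BMF (-1.55), DUSP1 (-0.82), FEN1 (-1.22), GINS2 (-0.66), XRCC2 (-1.39), CYP1A1 (-2.91), NHS (-2.38), EMC3-AS1 (-2.32), HMOX1 (-1.14) and HSPA5 (-0.65). The chemokine CCL20, the phosphodiesterase PDE4D and the replication nuclease FEN1 belong to different pathways, and the causes of these differences were not tested.

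Within SNU1079 the effect at 6 h differed from that at 16 h for these genes, as log2 differences, 6 h minus 16 h. It was more positive for EGR1 (2.31), AHR (1.63), NHS (2.59), PCLO (2.94), VAV3 (2.88) and NR5A2 (2.65), and more negative for CXCL8 (-2.50), ENSG00000231850 (-7.83), ENSG00000261889 (-4.35), GBP4 (-3.99) and ENSG00000259001 (-3.73). The DMSO levels differed between the times for EGR1, CXCL8, NR5A2, GBP4 and ENSG00000259001: at 16 h against 6 h with DMSO their log2 fold changes were 2.14, -2.26, 1.08, -3.61 and -1.39 (limma adjusted p = 1.58e-05, 2.54e-06, 0.000539, 0.00129 and 0.0476). The 16 h groups hold libraries that stand apart, and without the 3 SNU1079 libraries that do so the count of genes whose effect differed between the times went from 3036 to 5343. Groups of 3 libraries are too small for a test of single outlying samples, so none was made.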

How the results depend on the processing

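The 5042 calls of the main comparison came to 4105 to 5001 when 1 of its libraries was left out, 8145 with array weights, 3332 with the 12 SNU1079 libraries alone, 1121 with a minimum fold change of 1.5 and 8465 with both times pooled. The other alternatives stayed within 1.5 times. The 275 differences from RBE ranged from 190 to 412 with 1 library left out, and came to 2590 with array weights, 633 with the GC trend removed and 1153 without the 3 libraries that stand apart. The 3036 differences from 16 h ranged from 2240 to 4691 with 1 library left out, and came to 6301 with array weights, 1078 with the SNU1079 libraries alone and 5343 without the 3 libraries that stand apart. The share of lower genes under 10 kb, 9.3%, was 10.3% with equal sums, 12.8% when scaled to ribosomal protein genes and 11.8% with the GC trend removed. With both times pooled GBP4 (0.13) and ENSG00000259001 (0.71) changed sign. The causes were not tested.

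Same-numbered DMSO and YC-1 libraries did not deviate together (correlations of -0.15, 0.06 and -0.10), so the numbers were not taken to pair the samples. With the replicate block the calls came to 4718, the differences from RBE to 138 and those from 16 h to 2565.

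Of 161 named genes that were called, 95 kept the call under each of the 26 alternatives. Over named genes and alternatives, 4380 of 4672 values kept direction and side of the threshold. Of 2028 list counts, 1740 stayed within 1.5 times. Read depth is unknown, so counting error cannot be given for low genes.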

Other observations

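The share of low genes called higher with YC-1 went with the distance to the preceding gene on the same strand. This was looked at after the data were seen, and it is a description without a test. Among genes with a DMSO mean under 50, 30.4% of 335 that start under 5 kb after such a neighbour were called higher, against 20.3% of 385 at 5 to 20 kb, 13.3% of 662 at 20 to 100 kb, 10.6% of 1135 beyond 100 kb and 13.6% of 317 that overlap it. Without YC-1 replicate 1 the shares were 25.4%, 18.2%, 11.2%, 9.5% and 14.5%. In RBE at 6 h they were 14.9%, 14.3%, 7.6%, 7.2% and 7.9%.

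Many of these genes passed the minimum through the YC-1 libraries. Among genes at 10 or more in all 3 DMSO libraries and with a mean under 50, the shares were 18.8% of 202, 13.2% of 243, 7.2% of 447, 8.6% of 783 and 8.5% of 177. At a DMSO mean of 50 or more they were 17.4%, 14.4%, 14.6%, 13.2% and 16.2%.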
